A study of Sus scrofa with 6 samples.

Results

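The Notch receptors, their ligands and the HES/HEY genes were examined in porcine skeletal muscle satellite cells (PSCs), the stem cells of muscle, while they differentiated in culture. The set held 10 symbols (NOTCH1, NOTCH2, NOTCH3, DLL1, JAG1, JAG2, HES1, HES6, HEY1 and HEYL), and a symbol counted as measured where a pig Ensembl identifier of the expression table carried it. This gave 7 of the 10, among 28266 rows of the table of which 11804 were paired with a symbol. No row was paired with NOTCH1, HES1 or HEYL, and these genes were not analysed here.

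Notch is a receptor that is activated by ligands on a neighbouring cell. Ligand binding exposes the receptor to cleavage by ADAM proteases and then by γ-secretase, and the freed intracellular domain enters the nucleus, where it joins RBPJ and a Mastermind protein and switches on target genes, of which the HES and HEY repressors are the best known. In muscle, Notch signaling is known for keeping satellite cells quiescent or undifferentiated, and HES6 is an atypical family member that is known to promote myogenic differentiation.

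The cells came from the limb muscles of 3-day-old male Yorkshire pigs, received negative control (NC) siRNA and were then moved to differentiation medium. There were 3 libraries at 24 h and 3 at 36 h, numbered 4, 5 and 6 in either group. The series title and the study give 36 h for the later group, which is used here, whereas its sample labels give 48 h. The NC siRNA was read from the letter N of the library titles, with which the study marks its NC groups. Nothing states whether the libraries came from separate animals or cultures, so the p-values measure the spread between these libraries, which may be technical.

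Expression was deposited as FPKM, the fragments of a gene scaled to the length of its model and to the fragments counted in the library, and these values imply totals between 16382890 and 21896353 fragments per library. Changes below are given on the log2(FPKM + 1) scale as 36 h minus 24 h. They come from limma, a moderated linear model fitted to the 14060 genes whose FPKM averaged 1 or more over the 6 libraries, with Benjamini-Hochberg adjustment over all of them and a threshold of 0.05. Of these genes, 50.9% passed the threshold, 16.5% higher and 34.4% lower at 36 h, and 63.6% showed no overlap between the libraries of 24 h and 36 h. The higher genes made up 32.4% of the calls, against 51.8% under median-ratio scaling and 46.2% under quantile normalization. The median change of all genes was -0.157, against -0.006 with median-ratio scaling, so the members below can also be read against that shift. Replicate 6 of 24 h stood apart from the other libraries of its group in contractile and cell division genes, and its values are set out after the members.

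Among the 7 measured members, 3 rose (JAG2, HES6 and NOTCH3), 3 fell (NOTCH2, HEY1 and JAG1), and DLL1 did not pass the threshold. Of all genes tested, 16.5% were called higher and 34.4% lower. The largest change was that of the ligand JAG2, whose mean FPKM was 3.11-fold higher at 36 h, and the largest fall was that of the receptor NOTCH2, whose mean was 2.09-fold higher at 24 h. The groups did not overlap in any of the 7 members, nor in 63.6% of all genes tested. The median change of the 7 was 0.18, against -0.157 over all genes, and with 7 genes these counts describe the members only. With median-ratio scaling the members divided into 4 higher and 2 lower.

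**Figure D1:**
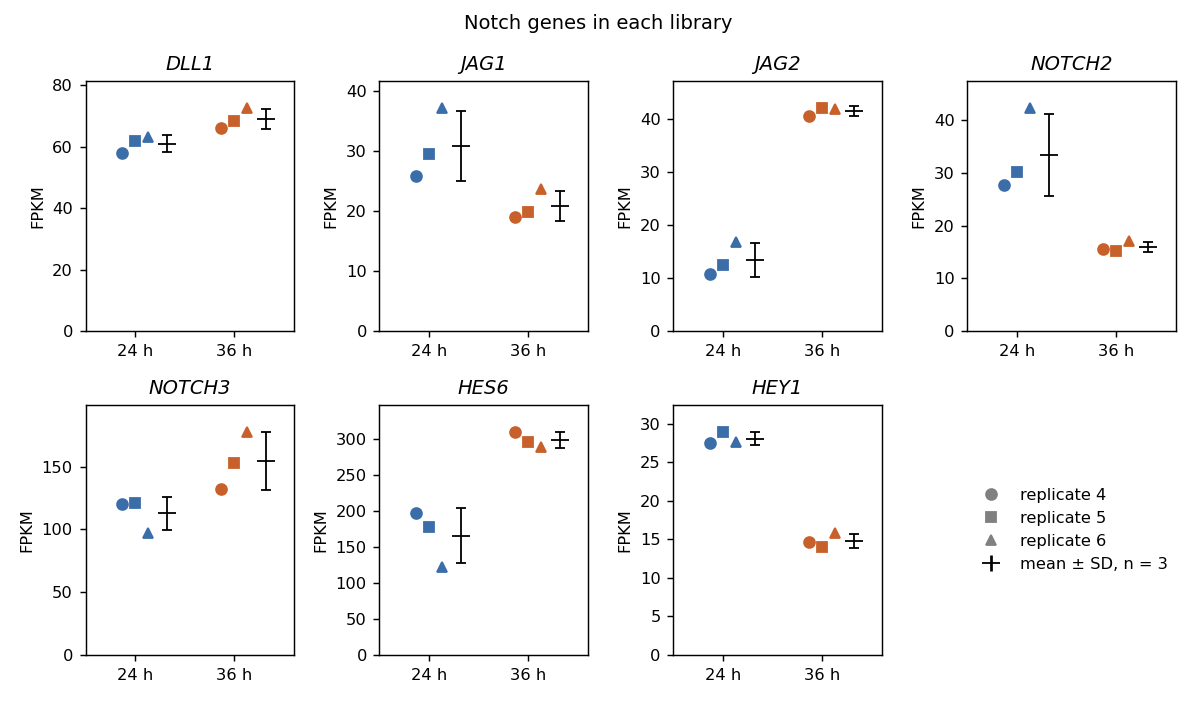
FPKM of the 7 measured Notch members (y axis, linear from 0, a scale of its own for each gene) in the 3 libraries of 24 h and the 3 of 36 h (x axis), with each library as a point and the mean and SD of each group. JAG2 went from 13.3 to 41.5 on average and HES6 from 166 to 299, whereas NOTCH2 went from 33.4 to 16 and HEY1 from 28.1 to 14.8.

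The ligands came first in the order of signaling. JAG2 (ENSSSCG00000002555), a ligand of the Jagged family, lies on an unplaced sequence of the pig genome (Sscrofa11.1), with a gene model of 2443 bases. Its FPKM was 10.7, 12.4 and 16.9 in 24 h replicates 4, 5 and 6, and 40.5, 42.1 and 41.9 in 36 h replicates 4, 5 and 6. The 36 h libraries lay within a narrow band, all above the highest 24 h library, which was replicate 6. The mean rose from 13.3 ± 3.24 (SD, n = 3) to 41.5 ± 0.843 (SD, n = 3), a change of 1.59 (SE 0.15, 95% interval 1.23 to 1.95, limma adjusted p = 0.000912). These values rested on 1618 fragments at 24 h and 6155 at 36 h, and 195 of the tested genes rose more. JAG2 kept its direction and its side of the threshold in all 15 alternatives, with changes between 1.45 and 1.77.

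JAG1 (ENSSSCG00000007067; chr17:19591248-19629659, model length 2617 bases), the other Jagged ligand measured, moved the opposite way. Its FPKM was 25.9, 29.5 and 37.2 at 24 h and 19.0, 19.9 and 23.7 at 36 h, in the same order of replicates. The groups did not overlap, but the highest library at 36 h, replicate 6, came close to the lowest at 24 h, replicate 4. The mean fell from 30.8 ± 5.78 to 20.9 ± 2.51 (SD, n = 3 each), a change of -0.53 (SE 0.15, 95% interval -0.88 to -0.19, limma adjusted p = 0.0212). This call was lost in several fits with 1 library left out, each of which had fewer samples, and with median-ratio scaling. The adjusted p was 0.0521 without 24 h replicate 5, where the change was -0.56. It was 0.0705 without 36 h replicate 4 (change -0.47) and 0.0724 without 36 h replicate 5 (change -0.5). With median-ratio scaling it was 0.0643, where the change was -0.36. The call held with quantile normalization, where the change was -0.45 (adjusted p = 0.0423).

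DLL1 (ENSSSCG00000027726; chr1:198815-211346, model length 3604 bases), a Delta-like ligand, was the most abundant of the measured ligands in every library. Its FPKM was 57.8, 61.8 and 63.1 at 24 h and 66.2, 68.4 and 72.6 at 36 h. All 36 h libraries lay above all 24 h libraries, by a margin smaller than the range within either group. The means were 60.9 ± 2.76 and 69.1 ± 3.27 (SD, n = 3 each), a difference of 0.18 (SE 0.06, 95% interval 0.02 to 0.33) that did not pass the threshold over all genes (limma adjusted p = 0.0555). It passed with median-ratio scaling, where the difference was 0.35 (adjusted p = 0.00554), and without 24 h replicate 6, where it was 0.20 (adjusted p = 0.037).

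The 3 ligands together summed to an FPKM of 105 ± 11.5 at 24 h and 131 ± 6.33 at 36 h (SD, n = 3 each), and their shares of that sum shifted. JAG2 took 12.6% ± 1.66 of the ligand FPKM at 24 h and 31.6% ± 1.13 at 36 h. JAG1 went from 29.2% ± 2.25 to 15.8% ± 1.14, and DLL1 from 58.2% ± 3.91 to 52.6% ± 0.11. In each 24 h library JAG1 exceeded JAG2, and in each 36 h library JAG2 exceeded JAG1. The FPKM ratio of JAG2 to JAG1 within a library was 0.412, 0.421 and 0.455 at 24 h and 2.14, 2.11 and 1.77 at 36 h. On the log2 scale this ratio differed by 2.22 between the groups (exact permutation test, two-sided, p = 0.1, the smallest that 3 libraries against 3 can give). It was one of 4 ratios chosen after the values were seen, and all 4 had this p, also after Benjamini-Hochberg adjustment over the 4. In JAG2 to JAG1, NOTCH3 to NOTCH2 and HES6 to HEY1, a gene that rose was paired with a gene that fell. Neither gene of these pairs overlapped between the groups, so the ratio had to separate them. The p of these ratios therefore adds nothing to the member values.

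NOTCH2 and NOTCH3 were the receptors measured above the FPKM minimum. NOTCH2 (ENSSSCG00000006709; chr4:100951522-101152348, model length 8436 bases), a receptor known for its part in satellite cell quiescence, had an FPKM of 27.7, 30.1 and 42.3 at 24 h and 15.6, 15.2 and 17.1 at 36 h. Every 24 h library lay far above the 36 h libraries, with replicate 6 the highest at 24 h. The mean fell from 33.4 ± 7.83 to 16 ± 0.991 (SD, n = 3 each), a change of -1.0 (SE 0.15, 95% interval -1.37 to -0.63, limma adjusted p = 0.00289). It rested on 13999 and 8137 fragments, and 689 of the tested genes fell more. NOTCH2 passed the threshold in all 15 alternatives, with changes between -1.12 and -0.82.

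NOTCH3 (ENSSSCG00000025176; chr2:62364507-62402348, model length 3233 bases), a receptor known from pericytes and vascular smooth muscle as well as from satellite cells, had an FPKM of 120, 121 and 97.1 at 24 h and 132, 153 and 178 at 36 h. The groups did not overlap, but 36 h replicate 4 was nearer to the 24 h libraries than to the highest library of its own group. The mean rose from 113 ± 13.7 to 155 ± 22.8 (SD, n = 3 each), a change of 0.45 (SE 0.13, 95% interval 0.13 to 0.76, limma adjusted p = 0.0296). The call rested on single libraries. Its adjusted p was 0.0501 without 24 h replicate 5, 0.0526 without 24 h replicate 6, 0.0821 without 36 h replicate 5 and 0.0794 without 36 h replicate 6, and the change without 24 h replicate 6 or without 36 h replicate 6 was 0.34.

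Markers of pericytes and smooth muscle stood beside NOTCH3. Of the 8 listed, 7 had a row, and their summed FPKM was between 869 and 1110 at 24 h and between 957 and 1060 at 36 h. Nearly all of that sum was ACTA2 (mean 961 and 989), which myoblasts can also express. MYH11 and KCNJ8 were near 0, with a mean FPKM of 0.00847 and 0.0859 at 24 h, and the other markers went in both directions. ABCC9 had 7.47 at 24 h and 18.3 at 36 h and PDGFRB 1.62 and 3.87, whereas CSPG4 had 3.2 and 1.68 and CNN1 3.83 and 2.89. The endothelial list, with 5 of 8 genes measured, summed to between 1.81 and 2.86 at 24 h and between 1.46 and 2.16 at 36 h, with KDR at 0. The part of such cells in the NOTCH3 values was not tested.

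NOTCH3 was the more abundant receptor throughout. It made up 77.0% ± 6.41 of the summed FPKM of both receptors at 24 h and 90.6% ± 0.97 at 36 h (SD, n = 3 each). The ratio of NOTCH3 to NOTCH2 was 4.34, 4.03 and 2.29 at 24 h and 8.48, 10.1 and 10.4 at 36 h, a log2 difference of 1.49 (exact permutation p = 0.1, the smallest possible). The receptor NOTCH4, known mainly from endothelium, lay under the minimum, with 0.468 ± 0.054 at 24 h and 0.969 ± 0.383 at 36 h, and was not tested.

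Of the HES and HEY genes, HES6 (ENSSSCG00000016342; chr15:137785808-137787689, model length 1414 bases) was the most abundant member of all, with a higher mean than 97.4% of the tested genes. Its FPKM was 197, 178 and 123 at 24 h and 311, 296 and 290 at 36 h. The 24 h libraries were spread, with replicate 6 the lowest, and the 36 h libraries lay close together well above them. The mean rose from 166 ± 38.3 to 299 ± 11 (SD, n = 3 each), a change of 0.87 (SE 0.17, 95% interval 0.48 to 1.27, limma adjusted p = 0.00598). It rested on 11685 and 25697 fragments, and the change stayed between 0.67 and 1.05 and past the threshold in all 15 alternatives.

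HEY1 (ENSSSCG00000006159; chr4:56859640-56863807, model length 2757 bases), a repressor that is induced by Notch in many cell types, went the other way. Its FPKM was 27.5, 29.0 and 27.7 at 24 h and 14.7, 14.0 and 15.8 at 36 h. Both groups were tight and far apart, and 24 h replicate 6 did not stand out here. The mean fell from 28.1 ± 0.812 to 14.8 ± 0.914 (SD, n = 3 each), a change of -0.88 (SE 0.07, 95% interval -1.04 to -0.72, limma adjusted p = 0.000692). It rested on 3850 and 2472 fragments, and the change was between -0.92 and -0.71 and past the threshold in all 15 alternatives. The ratio of HES6 to HEY1 was 7.16, 6.12 and 4.44 at 24 h and 21.1, 21.2 and 18.4 at 36 h, a log2 difference of 1.80 (exact permutation p = 0.1, the smallest possible). HEY2, a related repressor, was under the minimum with a mean FPKM of 0.113 at 24 h and 0.151 at 36 h.

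**Figure D2:**
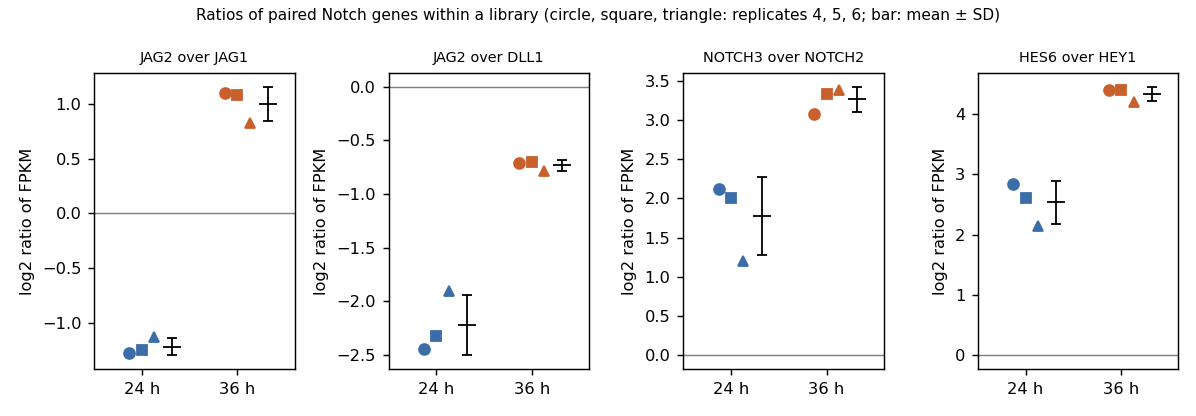
The log2 ratio of the FPKM of paired Notch members within each library (y axis, a scale of its own for each ratio) at 24 h and 36 h (x axis), with 1 point per library, the mean and SD of each group and a line at equal levels where it falls in the panel. The log2 ratio of JAG2 to JAG1 was -1.28 to -1.13 at 24 h and 0.82 to 1.1 at 36 h. The 3 libraries of either time did not overlap in any of the 4 ratios. For JAG2 to JAG1, NOTCH3 to NOTCH2 and HES6 to HEY1 this follows from the opposite changes of members that did not themselves overlap.

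**Figure D3:**
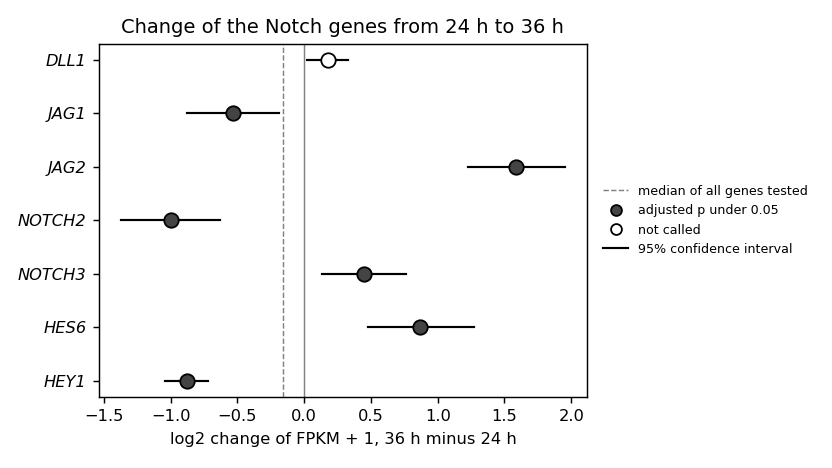
Change of each measured Notch member on the log2(FPKM + 1) scale, 36 h minus 24 h (x axis), as the limma estimate with its 95% interval, by gene (y axis). JAG2 was highest at 1.59 and NOTCH2 lowest at -1.0, and DLL1 was nearest to 0 at 0.18.

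FPKM is scaled to gene length, so the levels of the members can be set in order. At 24 h the order was HES6, NOTCH3, DLL1, NOTCH2, JAG1, HEY1 and JAG2, where NOTCH2 overlapped JAG1 and JAG1 overlapped HEY1. At 36 h it was HES6, NOTCH3, DLL1, JAG2, JAG1, NOTCH2 and HEY1, where the last pair overlapped. JAG2 thus moved from the lowest place to the fourth, while the top of the order did not change. The order depends on the length of each gene model, and the model of NOTCH3, with 3233 bases, was shorter than that of NOTCH2, with 8436.

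One library at 24 h differed from the other two of its group in several members. In 24 h replicate 6, NOTCH2 was 1.46 times, JAG1 1.34 times and JAG2 1.47 times the mean of replicates 4 and 5, whereas HES6 was 0.657 and NOTCH3 0.804 times that mean. DLL1 and HEY1 were at 1.06 and 0.981 times it. For NOTCH2, JAG1, HES6 and NOTCH3 this placed replicate 6 farther from the 36 h libraries, and for JAG2 nearer to them. Contractile muscle genes moved with it, since the summed FPKM of the 6 measured of 10 was 3480, 2800 and 1170 at 24 h against 10300, 9990 and 8390 at 36 h. The summed FPKM of the cell division genes (6 measured of 8) was 54.4, 75.9 and 155 at 24 h against 12.2, 11.0 and 16.1 at 36 h. In these bulk libraries fewer cells of a type and less RNA per cell cannot be told apart, and the part of these gene groups in the member values was not tested. Without replicate 6, JAG2 changed by 1.77, NOTCH2 by -0.82, JAG1 by -0.39, HES6 by 0.67 and HEY1 by -0.89, all past the threshold, as was DLL1 with 0.20 (adjusted p = 0.037). NOTCH3, with 0.34, was then no longer past it (adjusted p = 0.0526).

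The cell type labels were checked against defining markers. Satellite cell and myoblast genes, of which 6 of 8 had a row, summed to between 2400 and 3110 FPKM at 24 h and between 4810 and 5240 at 36 h. Most of that difference lay in DES (mean 1690 and 3180) and MYMK (487 and 1150), genes of differentiating and fusing myoblasts, while the early factors MYF5 (84.7 and 59.9) and MYOD1 (316 and 254) were lower at 36 h on average. The fibroblast list (7 of 10 measured) summed to between 930 and 1000 at 24 h and between 825 and 1030 at 36 h, with means of 693 and 450 for COL1A2 and 241 and 443 for COL3A1. The less abundant fibroblast markers DCN (18.8 and 6.12), LUM (5.51 and 1.83) and PDGFRA (0.486 and 0.0859) had lower means at 36 h, as had NOTCH2, HEY1 and JAG1, and their part in those values was not tested. One protocol field of the labels names endometrium as the tissue of the RNA. The list of endometrium and epithelium genes (6 of 8 measured, 2 of them at 0) summed to between 0.29 and 0.676 at 24 h and between 2.6 and 4.54 at 36 h, nearly all of it CDH1 (mean 0.318 and 3.63), while EPCAM, KRT8, KRT18, PGR and ESR1 were at or below 0.255 in every library. Adipocyte, leukocyte and Schwann cell lists stayed at or below 3.31, 5.89 and 0.203 in every library.

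The wider pathway was described with 79 further symbols, of which 59 had a row and 47 were tested. Of these 47, 9 rose, 19 fell and 19 did not pass, so 59.6% were called against 50.9% of all genes. Their median change was -0.14, close to the -0.157 of all genes. The balance depended on the scaling, with 14 higher and 13 lower under median-ratio scaling and 11 higher and 17 lower under quantile normalization.

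**Figure D4:**
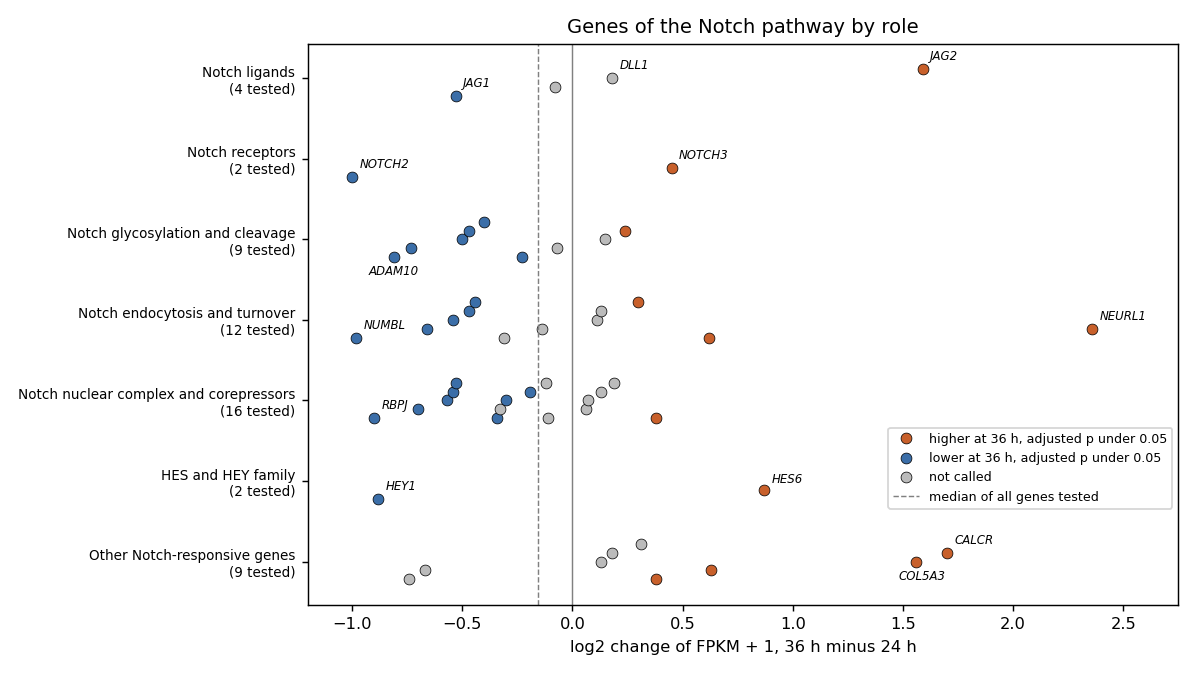
Change of each tested pathway gene on the log2(FPKM + 1) scale, 36 h minus 24 h (x axis), with 1 point per gene in rows by role (y axis), colored by the limma call, and the median of all genes as a dashed line. NEURL1 was farthest to the right at 2.36 and NOTCH2 farthest to the left at -1.0, and in the row of receptor glycosylation and cleavage 6 of 9 genes fell, beside 34.4% of all genes tested.

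Of 9 tested genes that modify and cleave the receptor, 6 were lower and 1 was higher, beside 34.4% lower and 16.5% higher of all genes. With median-ratio scaling these counts were 4 and 1. They were 7 and 1 without 24 h replicate 6, and 5 and 1 without 36 h replicate 6. The higher gene was FURIN, named after its values were seen, with means of 42.1 and 49.9 (0.24, limma adjusted p = 0.00904). ADAM10 is a protease of the cleavage that follows ligand binding. It had an FPKM of 48.9, 49.4 and 44.3 at 24 h and 28.3, 25.8 and 26.1 at 36 h. Its mean fell from 47.6 to 26.7, a change of -0.81 (limma adjusted p = 0.000752). LFNG, a glycosyltransferase that alters how Notch receptors respond to their ligands, had 56.4 ± 13.1 and 61.4 ± 1.65 and did not pass (0.15, adjusted p = 0.479). ADAM17, a related protease named here after its values were seen, fell from 32.4 ± 1.69 to 19.1 ± 0.412 (-0.73, adjusted p = 0.000752).

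Among the genes of endocytosis and turnover, 3 of 12 rose and 5 fell, near the 16.5% and 34.4% of all genes. With median-ratio scaling these counts were 4 and 5, and without 24 h replicate 6 they were 2 and 6. NEURL1, a ubiquitin ligase that acts on Notch ligands, had the largest rise of the pathway, with an FPKM of 2.37, 1.99 and 1.32 at 24 h and 18.5, 15.6 and 8.85 at 36 h. The lowest library at 36 h was still above all those at 24 h, and the change was 2.36 (SE 0.27, limma adjusted p = 0.0013). MIB2, a ubiquitin ligase of ligands named after its values were seen, rose from 38.8 ± 1.54 to 60.3 ± 3.39 (0.62, adjusted p = 0.00114). MIB1, its better known relative, had 68.3 ± 6.31 and 55.0 ± 6.9 and did not pass (-0.31, adjusted p = 0.0517), but passed without 24 h replicate 6 (-0.38, adjusted p = 0.022). NUMBL and NUMB are related adaptors, and NUMB is known as an inhibitor of Notch. NUMBL had an FPKM of 122, 122 and 91.3 at 24 h and 48.9, 53.3 and 66.1 at 36 h, a change of -0.98 (adjusted p = 0.00299), and NUMB fell from 5.25 ± 0.282 to 3.52 ± 0.117 (-0.47, adjusted p = 0.00466).

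Of the nuclear complex and its corepressors, 1 of 16 rose and 8 fell, beside the same 16.5% and 34.4% of all genes. The balance depended on the scaling, since 5 rose and 4 fell with median-ratio scaling, but 2 rose and 6 fell with quantile normalization. RBPJ, the DNA-binding partner of the Notch intracellular domain, had an FPKM of 36.8, 41.3 and 57.1 at 24 h and 21.6, 23.6 and 24.7 at 36 h. Its 24 h libraries all lay above those of 36 h, with replicate 6 the highest, as in NOTCH2. The mean fell from 45.1 ± 10.7 to 23.3 ± 1.53 (-0.90, SE 0.16, limma adjusted p = 0.00434), and the fall was -0.73 with median-ratio scaling. MAML1, a Mastermind coactivator, had 7.58 ± 0.267 and 6.95 ± 0.0738 and did not pass (-0.11, adjusted p = 0.225). MAML3, another Mastermind gene named after its values were seen, fell from 5.34 ± 0.991 to 3.24 ± 0.158 (-0.57, limma adjusted p = 0.00978), and MAML2 had no row. HDAC1, used by most cells, had a mean FPKM of only 0.0573 at 24 h, so a low value in this table need not mean little RNA.

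Among 9 other genes described as responsive to Notch, 4 rose (CALCR, COL5A3, COL5A1 and COL6A2) and 0 fell in the limma fit, beside 16.5% higher and 34.4% lower of all genes. At an unadjusted p under 0.05, 1 was lower, and the limma voom fit on recovered fragments called 1 lower. The count of 0 depended on 36 h replicate 6, without which 2 genes were called lower, MYC and ID2, both named after their values were seen. MYC, a growth-promoting transcription factor, had an FPKM of 24.7, 28.3 and 29.9 at 24 h and 9.62, 11.0 and 44.4 at 36 h (adjusted p = 0.316, and 0.00285 without 36 h replicate 6). ID2, an inhibitor of myogenic transcription factors, had 15.2, 15.8 and 20.6 at 24 h and 6.39, 8.95 and 16.1 at 36 h (adjusted p = 0.0746, and 0.0096 without 36 h replicate 6). In both genes that library was the highest of its group, within the range of the 24 h libraries in ID2 and above them in MYC. CALCR and the type V collagens are known as Notch-linked genes of quiescent mouse satellite cells. CALCR, the calcitonin receptor, had an FPKM of 2.08, 1.72 and 0.897 at 24 h and 8.14, 7.34 and 6.20 at 36 h (1.70, adjusted p = 0.00133). COL5A3 had 44.8, 38.8 and 18.6 at 24 h and 106, 92.9 and 90.5 at 36 h (1.56, adjusted p = 0.00612). In both genes the groups did not overlap and 24 h replicate 6 was the lowest library, as in HES6. NRARP, a feedback inhibitor of Notch, had 0.939 ± 0.627 and 1.36 ± 0.49 and did not pass (0.31, adjusted p = 0.376). Of the further ligands, DLL4 was under the minimum, DLL3 was listed at 0, DLK2 did not pass (-0.08, adjusted p = 0.742), and DLK1 had no row.

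For each member, the 3 genes with the most similar profile over the 6 libraries were taken from 7880 genes with a symbol, by the root mean square (RMS) difference of centred log2(FPKM + 1). The values describe these libraries, which share 1 contrast. JAG2 had the loosest matches, with ZNRD2 (0.147), SLC16A3 (0.15) and PPP1R3G (0.169). HES6 was nearest to CPT1B (0.046), JAM2 (0.052) and NEB (0.058), and NOTCH3 to EPHB3 (0.054), DNAAF5 (0.062) and FBXO31 (0.071). NOTCH2 was nearest to GPRASP2 (0.038), MFSD14B (0.041) and FOXRED2 (0.045). The closest genes to HEY1 were SMOX (0.022), GCLC (0.026) and KDSR (0.036), those to DLL1 were PHLDB1 (0.02), PIH1D1 (0.024) and CNOT3 (0.028), and those to JAG1 were RCN1 (0.03), DDX23 (0.03) and BNIP3L (0.038).

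**Figure D5:**
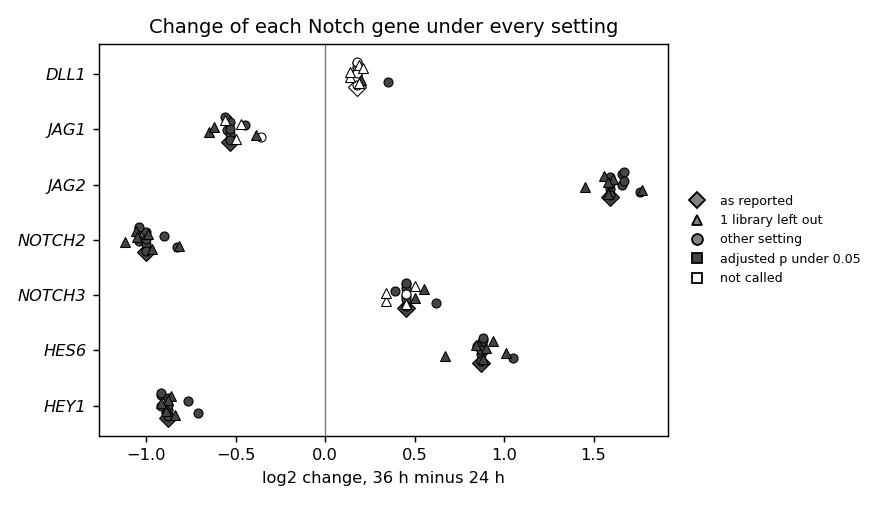
Change of each measured Notch member on the log2 scale, 36 h minus 24 h (x axis), by gene (y axis), in the reported fit and in 15 alternatives, with filled symbols for an adjusted p under 0.05 and open ones for the rest. JAG2, HES6, NOTCH2 and HEY1 were past the threshold throughout, while the adjusted p of JAG1 went up to 0.0724, that of NOTCH3 up to 0.0821 and that of DLL1 up to 0.15.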

How the data were processed

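The 6 libraries with NC siRNA were analysed here, from paired-end reads of the authors. Their methods name HISAT2 for mapping to the pig genome (Sscrofa11.1), StringTie for assembly and HTSeq for counting, and the expression values they deposited are FPKM, in 1 column per library with none pooled. The submitters' processing notes name TopHat2 and Cufflinks beside HTSeq. Strandedness and the treatment of reads shared between genes are not given in the sources used here. No column was left unused (0 columns).

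Symbols were paired with Ensembl identifiers through a reference table of gene names, and gene positions were taken from RefSeq (Sscrofa11.1). Since FPKM are not counts, the test was limma 3.58.1 under R 4.3.3 on log2(FPKM + 1), with lmFit, eBayes (trend) and a two-sided p for every gene that averaged an FPKM of 1 or more. Adjustment was by Benjamini-Hochberg over all genes tested, at 0.05. The fold change on this scale understates that of low genes. Whole fragments were recovered from the steps of the FPKM values for 19542 of 19543 genes above 0 in at least 3 libraries (99.99%, within 0.005 of a whole number), and limma voom on them was an alternative that called 7242 genes. Between 98.2% and 98.4% of the implied totals were recovered. Ratios of members within a library were compared by an exact permutation test, scipy 1.17.1.

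The members and gene lists were chosen with earlier results of these data known. Named pathway genes are the called genes with the 5 largest rises and 5 largest falls, members included, plus RBPJ, MAML1, NUMB, LFNG, DLK1, NRARP, MIB1, ADAM10 and 1 gene that is not reported here, whatever their values. Any other named gene was chosen after its values were seen. The other alternatives were a pseudocount of 0.1 or 0.01, an FPKM minimum of 5 or none, scaling by median ratios or quantiles, eBayes without the trend, a replicate block and the omission of each library in turn.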

Additional observations from a re-analysis of the deposited data

How the results depend on the processing

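JAG2, HES6, NOTCH2 and HEY1 kept their direction and stayed past the threshold in all 15 alternatives, and 4 to 6 members were called in any of them. Median-ratio scaling took the change of DLL1 to 0.35, past the threshold, and that of JAG1 to -0.36, no longer past it. With 1 library left out, the change of NOTCH3 was between 0.34 and 0.55, that of DLL1 between 0.14 and 0.21 and that of JAG1 between -0.65 and -0.39. The calls of NOTCH3 and JAG1 were lost without several of the libraries, each fit then having fewer samples, and that of DLL1 was gained without 24 h replicate 6. The cause of the other changes was not tested. The whole table held 7156 calls, and between 4889 and 7336 in the alternatives.

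The replicate numbers were not taken to pair the libraries, since the deviations of same-numbered libraries correlated by 0.146, -0.016 and 0.178 for numbers 4, 5 and 6. With the replicate block the change of NOTCH3 was 0.45 and no longer past the threshold (adjusted p = 0.0569), and no other member changed its call. Of the other named genes, MIB1 and ID2 passed with it (adjusted p = 0.0167 for each). Each group had 3 libraries, and the number of animals behind them was not stated.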
